A study of Mus musculus with 8 samples.

Results

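The genes described here were 9 chemokines and the cytokine CSF1, followed across 4 mouse fibrosarcoma cell lines. The members were the table rows for Ccl2, Ccl5, Ccl7, Cxcl1, Cxcl5, Cxcl10, Cxcl12, Cxcl16, Cx3cl1 and Csf1, so that all 10 were found among 18768 genes, and all 10 passed the filters on low counts. RNA was sequenced from 8 libraries, 2 from each line. Every line was grown from a sarcoma that methylcholanthrene, a chemical carcinogen, had induced under the skin of a mouse. MC010 and MC011 came from tumors of IRF8 KO mice and MC654 and MC659 from tumors of WT mice. Each line therefore stands for 1 tumor, the 2 libraries of a line share that tumor, and all 4 lines had been passaged in serum-containing medium with no further treatment named. Labelled replicates are not stated to be separate cultures, so p-values between lines measure only the spread between libraries, which may be technical. Fits between labels count the 4 libraries of a label as independent, although they come from 2 tumors. Standard errors and p-values between labels can therefore be too small.

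Chemokines are small secreted proteins that direct the movement of leukocytes by binding G protein-coupled receptors. Tumor cells of connective tissue origin are known to make several of them, and the resulting gradients draw monocytes, neutrophils or T cells into a tumor. CSF1 binds the receptor CSF1R and keeps macrophages alive and dividing.

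Library size was 74063616 to 116206078 counts, and a floor of 3 counts per library corresponded to 0.0262 to 0.0408 CPM (counts relative to library size after TMM scaling by edgeR). This floor covers counting error only. RNA of the targeted gene, Irf8, stood opposite to its labels, with 442 and 347 counts in MC010, 32 and 10 in MC011, 1 and 2 in MC654 and 1 and 0 in MC659. Counts per gene do not show which exons the reads come from. The paper reported PCR genotyping of MC654 and MC659 as IRF8 WT and of MC010 and MC011 as IRF8 KO. Groups are called by these labels, and every direction given below is by label. All 10 fibroblast and sarcoma markers were in the table, summing to 11110 to 11940 CPM in the libraries labelled IRF8 KO and 15920 to 17550 CPM in those labelled WT. Fn1 weighs heavily in that difference, with a mean of 1587 CPM under the IRF8 KO label against 7973. Only Fn1 was called lower, Thy1, Pdgfra and S100a4 were called higher, and the other 6 were not called. Of 10 macrophage and other blood cell markers 4 were in the table, summing to 16.7 to 23.3 CPM against 14.7 to 15.7 CPM, and the defining macrophage genes Adgre1, Lyz2, Itgam and Fcgr1 were not in it. Of 8 endothelial markers 6 were in it, at 1.05 to 2.47 CPM against 0.703 to 0.887 CPM. Epithelial markers, 6 of 8 in the table, summed to 39.9 to 567 CPM against 115 to 129 CPM. For Krt8, MC010 had 293 and 274 CPM and MC011 had 1.31 and 1.28. The part of these markers in the chemokine values was not tested.

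Upstream sequence is shown for 3 members because they took different courses across the lines. Under the IRF8 KO label Cxcl1 was higher, Cxcl10 was lower and Csf1, though without overlap between labels, was not called. The windows are the 250 bases before the RefSeq gene start on GRCm38.p6, and 5 of the 10 members matched the RefSeq promoter table. Cxcl1 lies on the plus strand at chr5:90890995-90891244, Cxcl10 on the minus strand at chr5:92348890-92349139 and Csf1 on the minus strand at chr3:107760470-107760719. Capitals mark the NF-kappaB consensus on either strand in all 3, and in Cxcl10 also the interferon-stimulated response element (ISRE) searched as GAAANNGAAA.
Cxcl1: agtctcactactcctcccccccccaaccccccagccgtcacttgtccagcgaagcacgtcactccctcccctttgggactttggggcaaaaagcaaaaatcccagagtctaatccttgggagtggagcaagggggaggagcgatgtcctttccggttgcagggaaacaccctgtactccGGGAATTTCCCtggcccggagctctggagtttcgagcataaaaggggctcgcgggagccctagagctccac
Cxcl10: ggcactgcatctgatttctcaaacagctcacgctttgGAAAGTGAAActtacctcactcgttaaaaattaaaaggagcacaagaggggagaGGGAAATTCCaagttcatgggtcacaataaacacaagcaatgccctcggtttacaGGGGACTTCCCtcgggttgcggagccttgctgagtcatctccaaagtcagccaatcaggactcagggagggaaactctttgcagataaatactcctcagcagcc
Csf1: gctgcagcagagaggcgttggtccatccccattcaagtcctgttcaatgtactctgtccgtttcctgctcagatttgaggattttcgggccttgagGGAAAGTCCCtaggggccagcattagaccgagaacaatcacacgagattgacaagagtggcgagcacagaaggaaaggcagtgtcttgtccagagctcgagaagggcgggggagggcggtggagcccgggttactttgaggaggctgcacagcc
Counting the base before the start as -1, the NF-kappaB consensus stood at -71 to -61 in Cxcl1, where matches on the 2 strands overlap. In Cxcl10 it stood at -159 to -150 and again, as overlapping matches, at -104 to -94, and the ISRE at -213 to -204. In Csf1 it stood at -154 to -145 on the other strand. The windows of Cxcl12 and Cx3cl1 held neither motif. Among all 32851 promoters of the table, 7.25% held the NF-kappaB consensus and 2.98% the ISRE within the same window. A match describes these letters and is not evidence of binding.

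Set against the libraries labelled WT, those labelled IRF8 KO had more RNA of 6 of the 10 genes and less of 3. A gene was called when edgeR gave it an adjusted p under 0.05 with a log2 difference beyond 0.59 either way. In such bulk RNA, fewer cells that make a gene and less RNA per cell cannot be told apart. The background was 13.7% of 15153 tested genes higher and 8.72% lower. These 10 genes and the lists below were chosen with earlier results of these data known. A count beyond the background is therefore a description and not a test. The higher genes were Ccl2, Ccl7, Cxcl1, Cxcl5, Cxcl16 and Cx3cl1, and the lower genes were Ccl5, Cxcl10 and Cxcl12. For all 10 genes the 4 libraries of one label lay entirely above or below the other 4, which also held for 42.5% of tested genes. This separation alone fixes the two-sided exact permutation test over libraries at 0.0286, the smallest p it allows, so that p adds nothing to it. Over 2 lines against 2, no such test can go below 0.333. With each line's counts summed, edgeR called none of the members in either direction, and 8 of 10 had an unadjusted p under 0.05. With MC654 left out 1 member was called higher, with MC659 left out 3 were, and a limma-voom fit with the line as a random block called 2, losing Ccl7 (adjusted p = 0.0778), Cxcl5 (adjusted p = 0.172), Cxcl16 (adjusted p = 0.112) and Cx3cl1 (adjusted p = 0.112).

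**Figure D1:**
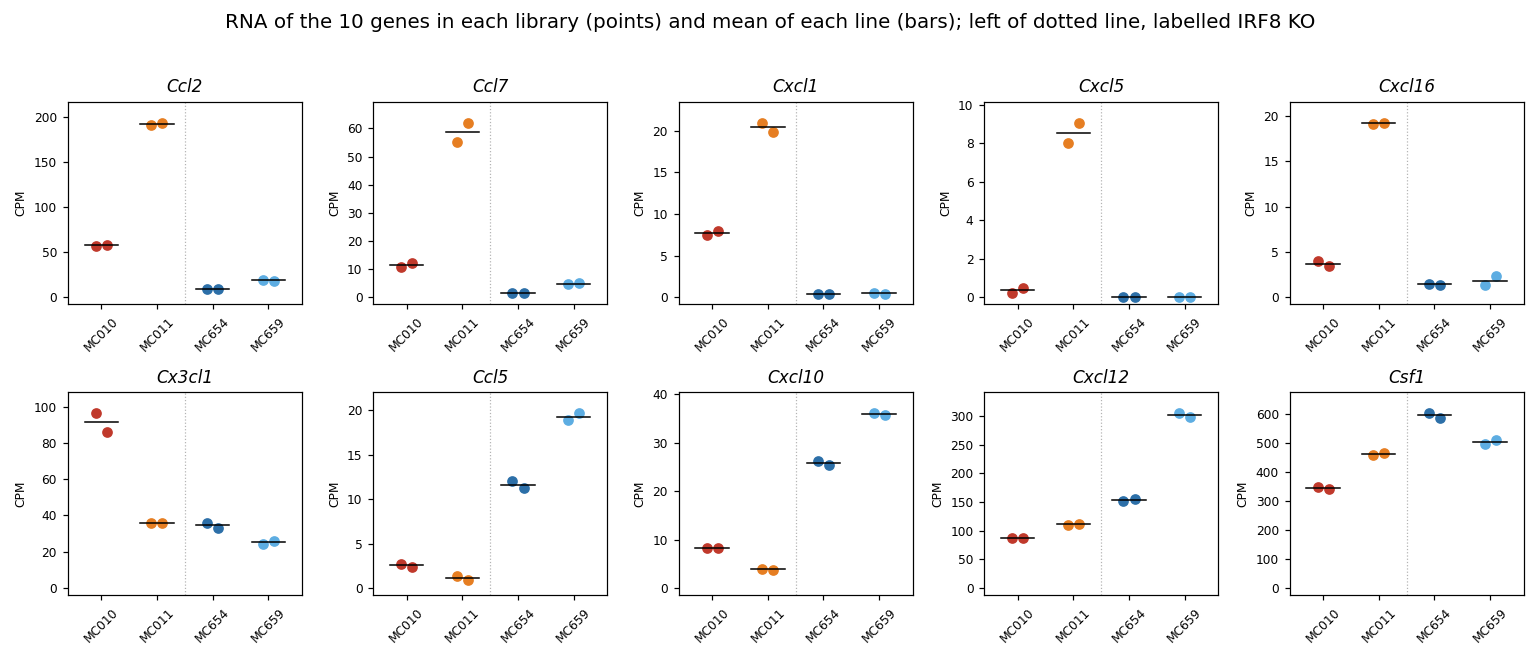
Each panel plots the CPM of 1 gene (linear axis) in the 2 libraries of each line, with a bar at the line's mean. The libraries of MC011 are the highest for Ccl2, Ccl7, Cxcl1, Cxcl5 and Cxcl16, and those of MC659 are the highest for Ccl5, Cxcl10 and Cxcl12.

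CCL2 and CCL7 attract monocytes through the receptor CCR2. Their genes lie 8.3 kb apart on chromosome 11 of mm10, Ccl2 at chr11:82035571-82037453 and Ccl7 at chr11:82045712-82047525. Ccl2 had 57.2 and 58.3 CPM in MC010, 192 and 194 in MC011, 9.64 and 9.50 in MC654 and 19.0 and 18.8 in MC659. The labels did not overlap, and the lines stood in the order MC011, MC010, MC659, MC654, with all 6 pairs of lines called different. Between labels the log2 difference of Ccl2, higher under the IRF8 KO label, was 3.14 ± 0.53 (SE; adjusted p = 0.00261). Without MC654 the difference was 2.72 with an adjusted p of 0.0525.

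Ccl7 had 10.8 and 12.2 CPM in MC010, 55.2 and 62.1 in MC011, 1.47 and 1.72 in MC654 and 4.75 and 5.10 in MC659. This is the same order of lines as for Ccl2, again without overlap, and every pair of lines was called different. The difference between labels was 3.43 ± 0.75 on the log2 scale (adjusted p = 0.00879), and 2.83 with an adjusted p of 0.0991 without MC654. In counts, there were 18.9 and 21.0 Ccl7 per 100 Ccl2 in MC010, 28.8 and 32.0 in MC011, 15.3 and 18.1 in MC654 and 25.0 and 27.1 in MC659. The share of Ccl7 was thus higher in MC011 than in MC010 and higher in MC659 than in MC654, so within each label it was higher in the line with more Ccl2. Of the further genes of the cluster, Ccl8 reached at most 0.279 CPM and Ccl11 at most 0.114 CPM, both in MC011.

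CXCL1 and CXCL5 attract neutrophils through CXCR2. Cxcl1 (chr5:90891241-90893115) had 7.49 and 7.97 CPM in MC010, 21.0 and 19.8 in MC011, 0.408 and 0.400 in MC654 and 0.567 and 0.445 in MC659. The labels did not overlap, MC011 was above MC010 by 1.40 ± 0.10 on the log2 scale (edgeR adjusted p = 4.09e-09), and MC654 and MC659 were not called different (-0.32 ± 0.23, adjusted p = 0.425). Between labels the log2 difference of Cxcl1 was 4.95 ± 0.44 (adjusted p = 0.000132), and it was past the thresholds in every alternative except the sums per line, where it had an adjusted p of 0.0871.

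Cxcl5 (chr5:90759360-90761624), 129.6 kb from Cxcl1, had 26 and 38 counts in MC010, 771 and 717 in MC011 and 0 in all 4 libraries labelled WT. Against the floor of 3 counts per library it was higher by at least 10.3-fold in MC010 and by at least 237-fold in MC011. The test between labels gave an adjusted p of 0.0194, which became 0.0870 without MC654 and 0.0919 without MC659. MC011 was above MC010 by 4.60 ± 0.28 (log2; adjusted p = 2.36e-09). There were 3.03 and 6.48 Cxcl5 counts per 100 Cxcl1 counts in MC010 but 38.1 and 45.8 in MC011. Cxcl2, a further CXCR2 ligand 10.8 kb from Cxcl1, was also higher under the IRF8 KO label (log2 3.27 ± 0.82, adjusted p = 0.0152), at 0.123 to 0.532 CPM against 0.0111 to 0.0959.

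CXCL10 attracts activated T cells and natural killer cells through CXCR3, and CCL5 attracts T cells and monocytes. Cxcl10 (chr5:92346638-92348889) had 8.29 and 8.29 CPM in MC010, 3.92 and 3.76 in MC011, 26.1 and 25.5 in MC654 and 36.2 and 35.7 in MC659. The order of lines was MC659, MC654, MC010, MC011, with no overlap between labels. Between labels Cxcl10 fell by 2.35 on the log2 scale in the libraries labelled IRF8 KO (SE 0.32, adjusted p = 0.000935). MC654 and MC659 differed by 0.48 ± 0.07 in favour of MC659 (adjusted p = 0.000115), which is under the fold threshold. Art3 overlaps Cxcl10 on the opposite strand and had at most 9 counts.

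Ccl5 (chr11:83525778-83530518) had 2.71 and 2.38 CPM in MC010, 1.37 and 0.861 in MC011, 12.0 and 11.2 in MC654 and 18.9 and 19.7 in MC659. The lines stood in the same order as for Cxcl10, the labels did not overlap, and all 6 pairs were called different. Between labels Ccl5 fell by 3.08 on the log2 scale (SE 0.40, adjusted p = 0.000805). There were 22.9 to 34.9 Ccl5 counts per 100 Cxcl10 counts in the libraries labelled IRF8 KO and 44.1 to 55.3 in those labelled WT. Both genes were past the thresholds in every alternative except the sums per line, with adjusted p of 0.125 for Cxcl10 and 0.116 for Ccl5.

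CXCL12, a homeostatic chemokine of stromal cells, binds CXCR4 and the scavenging receptor ACKR3. Cxcl12 (chr6:117168535-117181367) had 87.2 and 86.8 CPM in MC010, 110.2 and 112 in MC011, 152 and 156 in MC654 and 305 and 299 in MC659. The 2 libraries of MC659 stood above all others, and MC654 was closer to MC011, from which it differed by 0.47 ± 0.04 on the log2 scale (adjusted p = 9.03e-08, under the fold threshold), than to MC659. Between labels Cxcl12 fell by 1.20 in the libraries labelled IRF8 KO (log2; SE 0.26, adjusted p = 0.00849). Without MC010 the difference was -1.06 with an adjusted p of 0.0885.

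The receptors of CXCL12 moved the other way. Ackr3 had 17.7 and 15.6 CPM in MC010, 30.3 and 28.3 in MC011, 0.132 and 0.0706 in MC654 and 0.125 and 0.0556 in MC659, a log2 difference between labels of 7.89 ± 0.40 (adjusted p = 8.99e-06). Cxcr4 had 4.14 and 4.65 CPM in MC010, 0.560 and 0.291 in MC011 and at most 0.0334 CPM, no more than the floor, in the libraries labelled WT. The labels did not overlap (adjusted p = 0.00293). Thus Ackr3 was higher in MC011 than in MC010 and Cxcr4 was higher in MC010 than in MC011, by 3.34 ± 0.30 on the log2 scale (adjusted p = 4.98e-08).

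CXCL16 and CX3CL1 are made as transmembrane proteins that are shed by the proteases ADAM10 and ADAM17. Cxcl16 (chr11:70453983-70459984) had 4.00 and 3.47 CPM in MC010, 19.2 and 19.3 in MC011, 1.53 and 1.38 in MC654 and 1.36 and 2.38 in MC659. MC011 stood well above the other 3 lines, and MC654 and MC659 were not called different (-0.36 ± 0.21, adjusted p = 0.308). Between labels the log2 difference was 2.79 ± 0.64 (adjusted p = 0.0105), with an adjusted p of 0.127 without MC654 and 0.0982 without MC659. Cxcr6, the receptor of CXCL16, was higher under that label, at 0.654 to 1.63 CPM against 0.215 to 0.447. Zmynd15 overlaps Cxcl16 on the opposite strand and had 13 to 243 counts.

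Cx3cl1 (chr8:94772009-94782427), whose product binds CX3CR1 on monocytes and natural killer cells, had 96.6 and 86.1 CPM in MC010, 35.9 and 36.0 in MC011, 35.6 and 33.3 in MC654 and 24.3 and 26.0 in MC659. MC010 was far above the rest, and MC011 lay next to MC654, from which it differed by 0.06 ± 0.07 on the log2 scale (adjusted p = 0.483). The call between labels (1.10 ± 0.36, adjusted p = 0.0430) was lost in 12 of 20 alternatives and was 0.25 with an adjusted p of 0.227 without MC010. MC010 was above MC011 by 1.35 ± 0.07 (adjusted p = 1.93e-11). The sheddase genes Adam10 and Adam17 differed by -0.02 ± 0.07 and -0.30 ± 0.14 between labels, neither called.

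**Figure D2:**
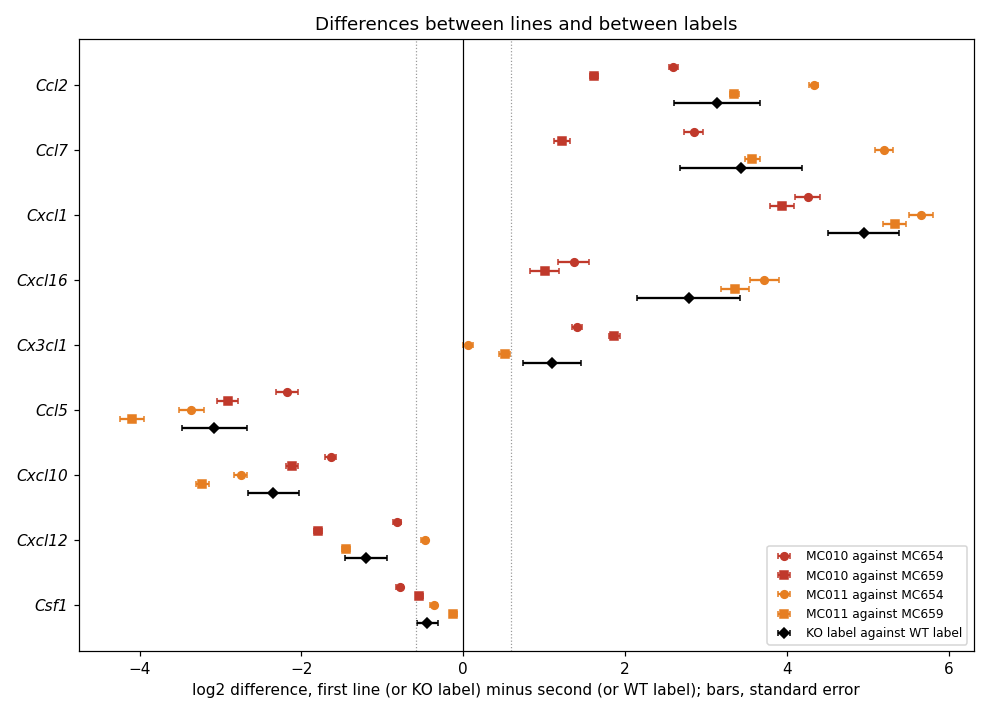
Points give the log2 difference of each gene between a line labelled IRF8 KO and a line labelled WT, or between labels (black), with its standard error, and dotted lines mark the fold threshold of 0.59. Cxcl5, at 0 in the libraries labelled WT, is left out. The 4 line differences have 1 sign for each gene, and the standard errors between labels are wider than those between lines.

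Csf1 (chr3:107741048-107760469) had 349 and 341 CPM in MC010, 459 and 464 in MC011, 602 and 585 in MC654 and 497 and 508 in MC659. The labels did not overlap, with MC010 and MC011 below MC654 and MC659. The log2 difference of -0.44 ± 0.13 (adjusted p = 0.0272) was under the fold threshold and was not called. Without MC011 it was -0.68 and called. Il34, the other ligand of CSF1R, had 15.9 and 15.6 CPM in MC010, 42.8 and 44.3 in MC011, 20.5 and 20.5 in MC654 and 14.5 and 16.2 in MC659. MC011 alone was high, by 1.46 ± 0.07 over MC010 (log2; adjusted p = 1.69e-11), and the labels were not called different (0.73 ± 0.38, adjusted p = 0.170). There were 2.92 to 4.59 Il34 counts per 100 Csf1 counts in the other 3 lines and 9.32 and 9.55 in MC011. Csf1r itself was at 0.245 to 0.477 CPM in the libraries labelled IRF8 KO and 0.935 to 1.80 CPM in those labelled WT, lower by label (-1.93 on the log2 scale). Csf3, the granulocyte factor G-CSF, was at 0.394 to 0.937 CPM against 0.0118 to 0.0599 and was higher (3.86 ± 0.52, adjusted p = 0.000873). With line as a random block its limma-voom adjusted p was 0.0701.

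**Figure D3:**
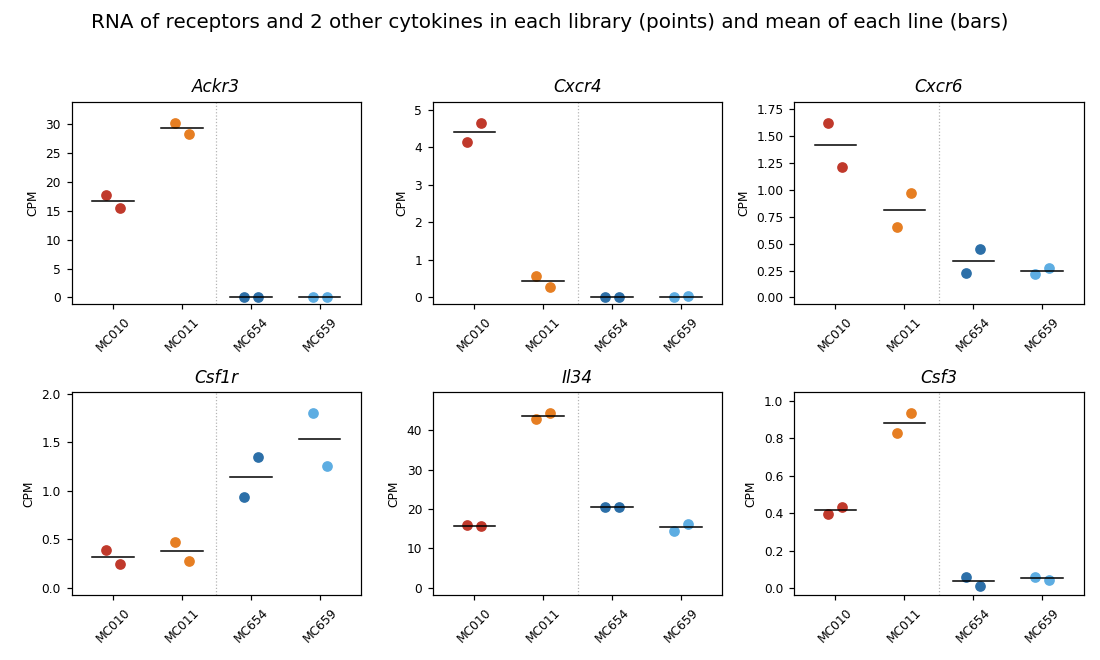
Each panel plots the CPM (linear axis) of a receptor or cytokine in the 2 libraries of each line, with a bar at the line's mean. Ackr3 is high only left of the dotted line, in both lines labelled IRF8 KO. Cxcr4 is high in MC010, with 4.1 and 4.7 CPM against 0.56 and 0.29 in MC011. Il34 stands out in MC011, with 42.8 and 44.3 CPM.

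Levels of different genes were set side by side per kb of exon (GENCODE M21). In MC011, Ccl2 was the most abundant member at 169 CPM per kb, above Csf1 at 87.4 and Ccl7 at 73.2. In the other 3 lines Csf1 was first, with 65.3 CPM per kb in MC010, 112 in MC654 and 95.1 in MC659, and the second was Ccl2 at 50.8 in MC010 but Cxcl12 at 18.8 in MC654 and 36.9 in MC659. The CPM of all 10 genes summed to 607 to 921 in the libraries labelled IRF8 KO and 824 to 915 in those labelled WT, so the sums overlapped while each gene's values did not.

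Lines sharing a label were not alike. MC010 and MC011 differed in 8 of 10 members. Ccl5, Cxcl10 and Cx3cl1 were higher in MC010, against a background of 16.3% of 16703 genes, and Ccl2, Ccl7, Cxcl1, Cxcl5 and Cxcl16 were lower, also against 16.3%. Csf1 and Cxcl12 differed by -0.42 ± 0.04 and -0.35 ± 0.04, under the fold threshold. MC654 and MC659 differed in 4 members, Ccl2, Ccl5, Ccl7 and Cxcl12, all lower in MC654, where 3.42% of genes were lower and 1.16% higher. The largest of these was Ccl7, at -1.62 ± 0.12 on the log2 scale (adjusted p = 1.59e-07). Across the labels, MC010 against MC654 had 6 members higher and 4 lower (background 20.3% and 15.4%), and MC010 against MC659 had 6 higher and 3 lower (19.8% and 16.9%). MC011 against MC654 had 5 higher and 2 lower (18.0% and 11.9%), and MC011 against MC659 had 5 higher and 3 lower (17.3% and 13.2%). These comparisons share libraries and are not independent.

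Over the wider families, 12 of 29 other chemokines were in the table and 6 were tested between labels, of which Cxcl2 and Cxcl14 were higher and Ccl9 lower. For this list and for the receptors, the share over all tested genes was 13.7% higher and 8.72% lower. Cxcl14, at 0 in all 4 libraries labelled WT, was above the floor by at least 9.50-fold in MC010 and by at least 32.8-fold in MC011. Ccl9, at 1.70 to 3.14 CPM against 3.04 to 6.16 (log2 -0.98 ± 0.32, adjusted p = 0.0415), lost its call in 10 of the alternatives. With line as a random block limma-voom called Cxcl14 (adjusted p = 0.0139) but not Cxcl2 (adjusted p = 0.175) or Ccl9 (adjusted p = 0.147). Of 14 receptors of the members 7 were in the table and 4 were tested, of which Ackr3, Cxcr4 and Cxcr6 were higher and Csf1r lower. With MC659 left out 1 of them was called higher, and with MC654 left out 2 were. With line as a random block limma-voom called Ackr3 (adjusted p = 0.00335) but neither Cxcr4 (adjusted p = 0.0950), Cxcr6 (adjusted p = 0.181) nor Csf1r (adjusted p = 0.194). The leukocyte receptor genes Ccr2, Cxcr1, Cxcr2, Cxcr3 and Cx3cr1 were not analysed here.

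NF-kappaB is a transcription factor that can drive chemokine genes after inflammatory stimuli, and its own inhibitors are among its targets. Its part in the levels of the members, whether higher or lower by label, was not tested. Of 15 pathway genes tested, 9 were higher under the IRF8 KO label and none lower, with a median log2 difference of 0.86 against 0.02 over all genes. The background was 13.7% of tested genes higher and 8.72% lower, and the list was chosen with earlier results of these data known. Nfkbia, which encodes the inhibitor IkB-alpha, had 39.9 and 39.3 CPM in MC010, 69.4 and 67.6 in MC011, 15.0 and 14.6 in MC654 and 14.1 and 14.2 in MC659, with a difference of 1.90 ± 0.21 (adjusted p = 0.000352). Nfkbie was higher in MC010 (21.6 and 21.1 CPM) than in MC011 (10.5 and 9.20), and at 2.31 to 2.67 CPM in the libraries labelled WT. The subunit gene Rela differed by 0.89 ± 0.05 (adjusted p = 1.65e-05), and Nfkb1 and Rel were not called. No gene of the list was called when the counts of each line were summed, and 5 were when MC654 was left out. With line as a random block limma-voom called 6 of the 9, losing Nfkb2 (adjusted p = 0.0767), Nfkbiz (adjusted p = 0.0804) and Bcl3 (adjusted p = 0.166).

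Among inducers and their receptors, 3 of 9 tested genes were higher, namely the interleukin-1 receptor Il1r1 (log2 2.06 ± 0.20, adjusted p = 0.000183) and the Toll-like receptors Tlr2 (2.81 ± 0.38, adjusted p = 0.000901) and Tlr4 (1.17 ± 0.16, adjusted p = 0.000884). Of all tested genes, 13.7% were higher and 8.72% lower. Il6, at 0.259 to 0.430 CPM against at most 0.129, was not called (adjusted p = 0.0606). Tnf, Il1b and Ifnb1 were not analysed here.

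Cxcl10 and Ccl5 are induced by interferon, whose part in their levels was not tested. Of 10 Irf and Stat genes, listed here as interferon-responsive factors, 7 were lower under the IRF8 KO label and 1, Irf8 itself, was higher against its label. Their median log2 difference was -1.06 against 0.02 over all genes. Among all tested genes, 8.72% were lower and 13.7% higher, and this list too was chosen with earlier results of these data known. Irf7 had 3.52 and 3.12 CPM in MC010, 0.954 and 1.58 in MC011, 23.8 and 22.7 in MC654 and 41.6 and 46.3 in MC659, the same order of lines as Cxcl10 and Ccl5. Irf1 fell by 0.74 (SE 0.09, adjusted p = 0.000568), whereas Stat3 and Irf2 were not called. With one line left out 6 or 7 of the 10 were lower, and with sums per line none was called. Irf8 was not called without MC654, without MC659 or with line as a random block (limma-voom adjusted p = 0.153).

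Of 9 genes tested for processing or presentation of chemokines, Mmp9 was higher (3.56 ± 0.35, adjusted p = 0.000186) and Mmp2, a protease that cleaves CCL7 and CXCL12, was lower, at 206 to 275 CPM against 574 to 625 (-1.32 ± 0.10, adjusted p = 7.22e-05). Of 6 regulators of mRNA decay or stability, Zfp36l1 was higher (1.30 ± 0.15) and Zfp36, encoding tristetraprolin, was lower (-0.60 ± 0.10), just past the fold threshold. With 1 gene higher and 1 lower, each list was near the share over all tested genes, 13.7% higher and 8.72% lower. Zfp36 was not called without MC011, without MC659, without the second library of MC010, MC011 or MC659, or with line as a random block (limma-voom adjusted p = 0.153).

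**Figure D4:**
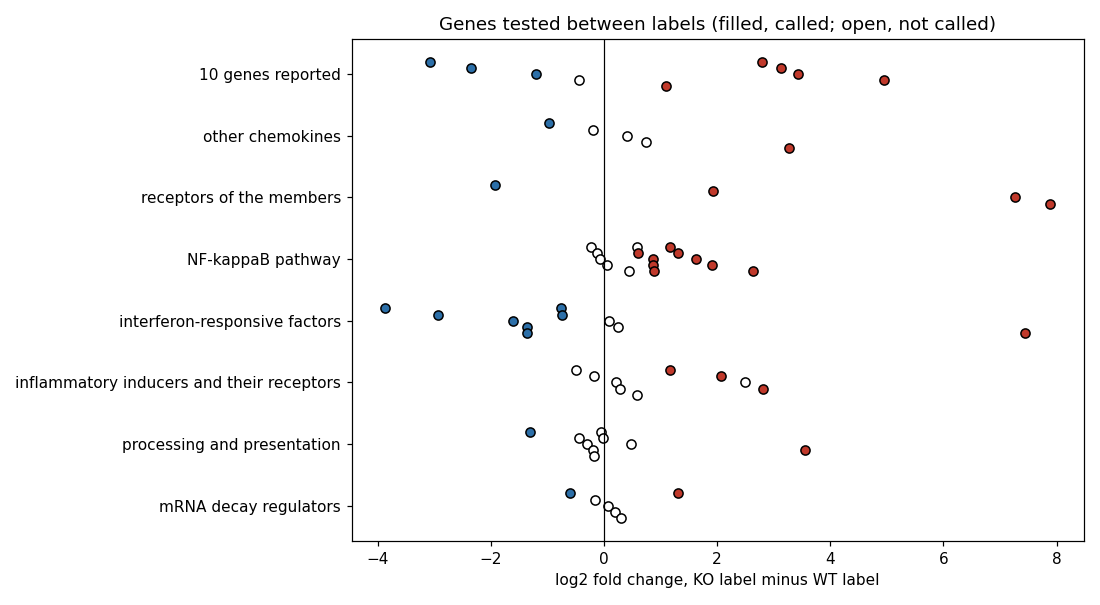
Points give the log2 fold change between labels of each gene tested in a list, filled where called, with Cxcl5 and Cxcl14 left out because they were at 0 in the libraries labelled WT. The NF-kappaB genes called are all above 0, and 7 interferon-responsive factors called are below 0 while Irf8 is above.

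The genes with the profile nearest to each member were found by the root-mean-square distance between centred log2 CPM over the 8 libraries, among 16702 genes. Nearest to Ccl2 were Loxl2 (0.102) and P3h2 (0.192), and to Ccl7 Reln (0.310) and Ptx3 (0.318). Nearest to Cxcl1 were Kcnj2 (0.245) and Cxcl14 (0.251), to Cxcl5 Cnnm1 (0.468) and Serpinb1a (0.478), and to Cxcl16 Klf4 (0.233) and Enpp2 (0.245). For Ccl5 they were Bst2 (0.234) and Agbl2 (0.247), and for Cxcl10 Parp9 (0.109) and Ddx58 (0.146). Cxcl12 was nearest to Lgals9 (0.0640) and Gm46404 (0.138), and Cx3cl1 to Tbc1d2 (0.0857) and Lyn (0.112). With 4 lines, such likeness rests on 4 levels. Csf1 varied too little between lines to be compared in this way.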

How the data were processed

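RNA sequencing libraries (labelled stranded mRNA-Seq, 2 per line) were aligned by the authors to mm10 with STAR and counted on genes with HTSeq. The submitters' processing notes give STAR 2.7.3a and HTSeq 0.11.2, and the paper's methods give other versions. Whether counting used the strand is not given in the sources used here. The deposited table holds raw counts per library and a normalized signal, the count divided by a size factor. It also holds the authors' own comparison, with a log2 fold change, a score (Wald statistic) and a p-value, which was not used. Every listed gene had at least 20 counts in total, and genes of the sex chromosomes were not analysed here.

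Raw counts were tested with edgeR 4.0.16 in R 4.3.3, using filterByExpr, TMM, robust quasi-likelihood and Benjamini-Hochberg adjustment over all genes. One fit compared labels over 4 and 4 libraries, as the authors did with DESeq2. Another had 1 group per line, with 6 pairwise comparisons. Calls needed an adjusted p under 0.05 with a log2 difference beyond 0.59 either way. Standard errors came from the fold change and F statistic. Scripts were tested on simulated data. Library totals of 74063616 to 116206078 counts set a floor of 3 counts at 0.0262 to 0.0408 CPM. Libraries of a line were not duplicates of one another. Named genes were the members, the genes of the lists, Irf8 and, per member varying over 2-fold between lines, the 2 genes with the nearest profile. Alternatives were DESeq2 1.42.0, no filter, other scaling, the replicate block, line sums, limma 3.58.1 voom with line as a random block, each library or line left out and no fold threshold. The members and lists were chosen with earlier results of these data known. Some items are not reported here on their own and enter only the counts over lists and all genes.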

Additional observations from a re-analysis of the deposited data

Results flagged for a closer look

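The 2 lines labelled IRF8 KO differed in 8 of the 10 genes when set directly against one another with edgeR. The background was 16.3% of 16703 genes higher in MC010 and 16.3% lower. The log2 difference MC010 minus MC011 was -1.74 for Ccl2, -2.35 for Ccl7, -1.40 for Cxcl1, -4.60 for Cxcl5 and -2.35 for Cxcl16, all higher in MC011. It was 1.18 for Ccl5, 1.11 for Cxcl10 and 1.35 for Cx3cl1, higher in MC010. Each was seen in 2 of 2 libraries of each line. Both lines carry the IRF8 KO label and each is 1 tumor, so that line and tumor cannot be told apart.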

How the results depend on the processing

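No fold change of a member changed sign. With counts summed per line, no member and no gene was called in either direction (0 of 16927 by edgeR, 3658 at an unadjusted p under 0.05), and the members had adjusted p of 0.0871 to 0.316. Against 6 members higher between labels, limma-voom with line as a random block called 2, leaving out MC654 called 1 and leaving out MC659 called 3, while leaving out 1 library called 5 to 6. Members lower were 3 in every leave-out of a library. Over all genes, where 2083 were higher and 1321 lower, limma-voom called 1047 and 839, no fold threshold 3151 and 2524, without MC654 1222 and 857, and without MC659 1185 and 699. Without MC011 it was 3159 and 2668, and without MC010 2056 were lower. Dropping the fold threshold raised the members called between MC654 and MC659 from 4 to 7. DESeq2 called the same number of members in each direction. In the fit with the library number as replicate block, Cx3cl1 was the 1 member that lost its call (1.09, adjusted p = 0.0686). Deviations of libraries with the same number correlated at -0.032 to 0.045, so no large effect shared by number was seen. This does not show whether libraries of the same number were handled together. Other scalings moved the median of all genes by less than 0.1. The cause of these changes was not tested. Depth left Cxcl5 and Cxcl14 without a fold other than a lower bound.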
